A study of Mus musculus with 22 samples.

Results

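Cytosolic ribosomal protein genes were taken from the counts of 3 deposited comparisons of mouse ventricular cardiomyocytes. A gene was included when its symbol followed the Rpl or Rps naming pattern (with Rplp0, Rplp1, Rplp2, Rpsa and the muscle paralog Rpl3l), carried no pseudogene suffix, and averaged 10 or more counts per library in each comparison. Of 79 genes with such a symbol, 71 met this minimum, 32 of the small subunit (Rps) and 39 of the large subunit (Rpl), among 46813 genes listed in all 3 comparisons. Rpl10l, Rpl23a, Rpl24, Rpl35, Rpl39l, Rps12l1, Rps28 and Rps29 fell below it. A further 10 genes of the family, among them Rps6, Rpl10 and Rpl32, carry no symbol in the files and were left out of the 71. GENCODE vM21 annotates 4 of the 71 (Rps3a2, Rps3a3, Rpl6l and Rps4l) as pseudogenes.

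Each library came from the cardiomyocytes of 1 male mouse, isolated enzymatically from the perfused heart, and total RNA was sequenced after depletion of ribosomal RNA. CASK KO mice (n = 3) carried floxed CASK and a Cre recombinase driven by the cardiac alpha-myosin heavy chain promoter, and CASK control mice (n = 3) carried that Cre alone. SAP97 KO mice (n = 3) carried the same Cre with floxed SAP97 (the gene Dlg1), whereas SAP97 control mice (n = 3) were floxed with no Cre by their labels. The study's own sources differ on Cre in these controls, so whether the SAP97 groups also differ in Cre is unsure. Both of these lines were of mixed strain, and the 12 mice were 10.1 to 13 weeks old. MDX mice (n = 4) carried the MDX-5CV allele of dystrophin in every cell (genotype MDX -/-), and MDX control mice (n = 5) were wild type. MDX replicate 1, which had few read pairs, was left out, as the study did. MDX and control replicate 5 came from a mixed, backcrossed stock, the other MDX mice were C57Bl/6Ros and the other controls C57Bl/6J or C57Bl/6, at 10.9 to 17.7 weeks. The comparisons ask whether loss of CASK, SAP97 or dystrophin changes the cardiomyocyte transcriptome, and here what they show for the genes of the ribosome itself.

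The cytosolic ribosome holds a single copy of nearly every ribosomal protein, apart from the stalk proteins Rplp1 and Rplp2, which are present as pairs of dimers. Most vertebrate ribosomal protein messengers start with a run of pyrimidines, the 5′ terminal oligopyrimidine motif, through which mTOR controls their translation. Rpl3l replaces Rpl3 in part of the ribosomes of heart and skeletal muscle. Mammalian genomes also hold many processed pseudogenes of this family, made by reverse transcription of its abundant messengers.

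Libraries held 24253610 to 42159185 counts, of which the 71 genes took 0.111 to 0.329%. Mitochondrially encoded genes took 23.6 to 54.4%, highest in MDX control replicate 3. The targeted genes were lower in every library of their group: Cask at 0.607 to 2.49 CPM (counts scaled by library size, with TMM factors within the comparison) in CASK KO and 8.81 or more in CASK control, Dlg1 at 11.2 to 13.4 in SAP97 KO and 54.2 to 67.0 in SAP97 control, and Dmd at 72.1 to 121 in MDX and 221 to 314 in MDX control. All 9 cardiomyocyte markers were present, at a summed 47968 to 68787 CPM. In contrast, 7 endothelial markers summed to 132 to 481 and 8 macrophage and leukocyte markers to 23.7 to 84.5. Cardiomyocyte markers summed to 48706 to 59544 in SAP97 KO and 59446 to 68787 in SAP97 control (median log2 fold change -0.41). Endothelial markers summed to 391 to 415 in CASK KO and 203 to 392 in CASK control (median 0.36). No marker of either list was called by edgeR in these comparisons. Summed atrial markers (4 genes, none at 0) were 31.2 to 69.4 in CASK KO and 227 to 532 in CASK control. They were 70.3 to 82.4 in SAP97 KO and 42.2 to 59.8 in SAP97 control. The median log2 fold change of the 4 atrial genes was -0.45 in CASK KO and -0.46 in SAP97 KO. In SAP97 KO the sum and the median thus went in opposite directions, so the sum does not describe the list as a whole. The 6 mural cell markers were 298 to 368 in MDX and 208 to 282 in MDX control (median log2 fold change 0.18 over the 5 tested). The part of all these markers in the results was not tested. In bulk RNA, fewer cells of a type and less RNA per cell cannot be told apart.

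Many of these genes share nearly their whole coding sequence with annotated copies elsewhere in the genome, so that the counts of a gene alone are uncertain. The first 60 coding bases of Rpl3, the large-subunit protein near the peptidyl transferase centre, are shown, as an example of how alike gene and copy can be, with those of 2 pseudogenes on the X chromosome and of Rpl3l, and those of the small-subunit gene Rps25 with its pseudogene on chromosome 6. Capitals mark bases that differ from the parent gene (GENCODE vM21 transcripts, GRCm38).
Rpl3: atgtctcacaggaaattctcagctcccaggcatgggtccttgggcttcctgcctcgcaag
Rpl3-ps1: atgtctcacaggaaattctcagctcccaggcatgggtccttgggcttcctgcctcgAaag
Rpl3-ps2: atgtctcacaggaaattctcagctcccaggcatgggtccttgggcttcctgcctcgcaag
Rpl3l: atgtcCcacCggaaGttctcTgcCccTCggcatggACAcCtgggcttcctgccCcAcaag
Rps25: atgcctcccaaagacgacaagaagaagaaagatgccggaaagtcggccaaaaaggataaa
Rps25-ps1: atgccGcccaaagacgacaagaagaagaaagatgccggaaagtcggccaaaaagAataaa
Over this stretch Rpl3-ps1 differs from Rpl3 at 1 base and Rpl3-ps2 at 0, while Rpl3l differs at 13. Rps25-ps1 differs from Rps25 at 2 bases.

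A near-identical copy was defined as a pseudogene, or a gene with a ribosomal protein symbol, that holds at least 25% of the 31-base words of a gene's coding sequence. By this measure 66 of the 71 genes had such a copy, 416 copies in all outside the 71, and 412 of them are annotated as pseudogenes. In MDX control libraries the copies together outcounted the gene itself for 52 of the 71. Rpl31, a protein at the rim of the exit tunnel, had a mean of 19.2 counts against 3029 for its 11 copies, of which Rpl31-ps8 held 2801. Rps27, a zinc-finger protein of the small subunit, had a mean of 26 counts, while its retrogene Rps27rt on chromosome 9 had 6690. Rps25 had 220 counts, against 3129 for Rps25-ps1 alone. In contrast, Rpl3l, Rpl8 and Rps3, whose coding words were less than 20% shared with other genes, had no such copy. Rplp2 had none by this definition either, although 86.0% of its coding words occur in other genes, so its counts are not free of this uncertainty.

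**Figure D1:**
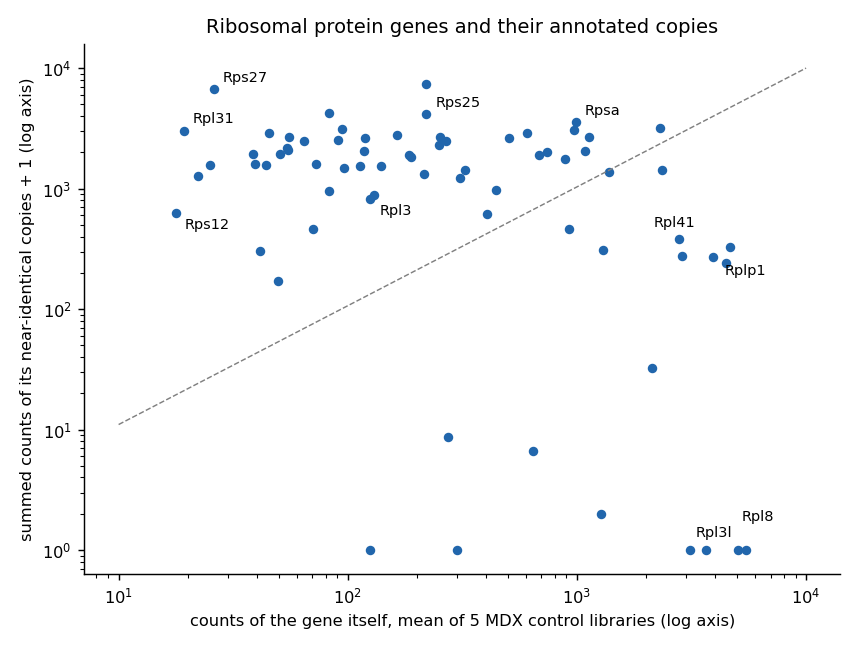
Counts of each of the 71 ribosomal protein genes (x axis, mean of 5 MDX control libraries) against the summed counts of its near-identical annotated copies plus 1 (y axis), both on log axes, with 1 point a gene and a dashed line at equality. Of the 71 points, 52 lie above equality, among them Rpl31 and Rps27, and Rpl3l and Rpl8 lie at 0 copies.

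Counts were lower for genes with more of their coding sequence found elsewhere, whereas the sums over gene and copies were much closer. Per kilobase of coding sequence, the 4 genes with less than 20% shared words had a median of 5829 counts, the 13 genes with 20 to 80% had 3691 and the 54 genes with 80% or more had 260. Once the copies were added, the medians were 5829, 5605 and 3966. The 71 genes had an SD of 1.26 on the log2 scale with copies and of 2.29 alone, and quartiles of 2963 and 6614 with copies and of 152 and 1707 alone. Across the 71 genes, Spearman's rho between shared words and counts per kilobase was -0.61 for the gene alone and -0.01 with copies. These are descriptions across genes that share libraries and, in part, the same copies.

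Levels of single genes spanned a wide range. In TPM (length-normalised abundance, computed from the counts and the deposited exon length), means over the 5 MDX control libraries ran over a ratio of 666 between the highest and the lowest gene, with a median of 9.73. The 6 highest held 49.6% of the summed TPM. Rplp1, a stalk protein that contacts elongation factors, was highest at 419 ± 123 TPM (SD, n = 5), followed by Rpl8 at 319 ± 118, Rps21 at 192 ± 44.3, Rpl4 at 181 ± 54.9, Rpl41 at 125 ± 45.5 and Rpl3l at 122 ± 42.8. The lowest 6 were Rpl11, which also binds Mdm2 (0.79 ± 0.16), Rps13 (0.77 ± 0.20), Rpl28 (0.77 ± 0.54), Rpl36a (0.73 ± 0.27), Rpl35a (0.68 ± 0.14) and Rpl31 (0.63 ± 0.37). Each of these 6 low genes has near-identical copies, so its TPM counts only the reads assigned to the parent locus. No pair of neighbours in the order had ranges that failed to overlap, and the coefficient of variation over the 5 mice had a median of 40.5%. The order was nearly the same in all 6 groups, with a lowest Spearman's rho of 0.96 between group means over 71 genes.

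**Figure D2:**
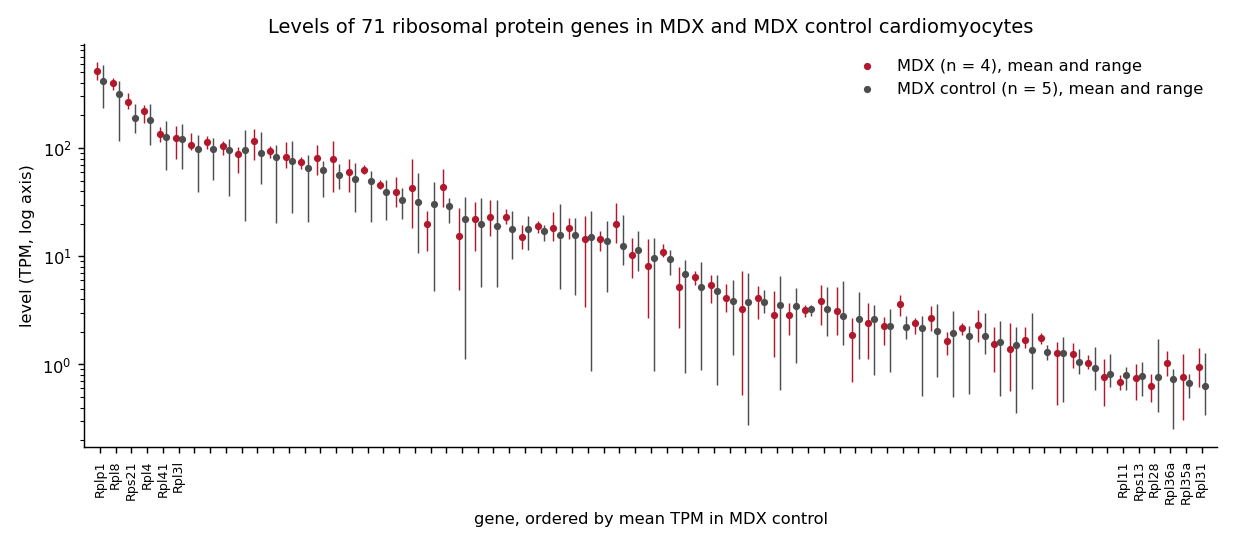
Level of each of the 71 genes in TPM on a log axis, ordered along the x axis by its mean in MDX control (the 6 highest and the 6 lowest named), with the mean (point) and the range over libraries (line) of 4 MDX and 5 MDX control libraries. Levels ran over a ratio of 666 in MDX control, the ranges of both groups overlapped for 70 of the 71 genes, and MDX control replicate 3 was the lowest control for 58.

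Transcription starts of the family were compared with other genes because the pyrimidine run is its shared regulatory feature. RefSeq promoters (GRCm38.p6) were found for 53 of the 71 genes. The windows run from 20 bases before to 10 from the annotated start on, 5′ to 3′, and capitals mark an unbroken run of C or T that covers the start. Rplp2, Rpl38, Rps27 and Rps9 are shown as examples chosen for having a run. Rpl3l and Rps27l are shown as muscle and p53-responsive paralogs without one at the annotated start. The Rps27l window does hold an unbroken run of 8 or more upstream of its start.
Rplp2 (chr7:141447631-141447660, + strand): cccactgcgtcagcgTCTTCCTTTCgccgc
Rpl38 (chr11:114668560-114668589, + strand): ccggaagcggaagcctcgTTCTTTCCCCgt
Rps27 (chr3:90213639-90213668, - strand): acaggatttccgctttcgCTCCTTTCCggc
Rps9 (chr7:3704021-3704050, + strand): gtccaaccgccttgTCTCTCTTTgtctcgg
Rpl3l (chr17:24727806-24727835, + strand): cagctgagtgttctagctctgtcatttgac
Rps27l (chr9:66946066-66946095, + strand): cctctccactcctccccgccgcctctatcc
A run of 8 or more on the transcribed strand covered the first annotated start in 13 of the 53 genes (24.5%), against 3.81% of all 27025 genes in the table. Anywhere within the 30 bases, such a run was present in 43.4%, against 12.4% of all genes. Rpl3l had no C or T at its annotated start. Annotated starts can lie off the main start by some bases, so a window without a run says only that these letters are not there.

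Within groups, single mice held the highest or the lowest value of many of the 71 genes. In CASK KO replicate 2, 60 of the 71 had their highest scaled counts (CPM) of the 3 knockout mice, and in CASK KO replicate 1, 64 had their lowest. Their median lay 0.39 above and 0.60 below the group mean on the log2 scale. When copies were added, all 71 families were highest in replicate 2 and all 71 lowest in replicate 1. SAP97 KO replicate 1 was lowest for 59 genes and replicate 2 highest for 54. In the MDX comparison, replicate 5 was highest for 49 genes among MDX mice and for 60 among controls, with medians 0.40 and 0.75 above the group means. MDX control replicate 3 was lowest for 35 genes, with a median 0.57 below. Among the controls of the other lines, 5, 32 and 34 genes were highest in CASK control replicates 1, 2 and 3 (42, 16 and 13 lowest). In SAP97 control replicates 1, 2 and 3, 24, 9 and 38 genes were highest (17, 29 and 25 lowest). With copies added, CASK control replicate 1 was lowest for 57 families and SAP97 control replicate 3 highest for 59.

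Other library measures differed between these mice, not always in the same direction. The share of ambiguous read pairs, which the authors' counting assigned to no single gene, was 12.1% in CASK KO replicate 1 and 11.5% in SAP97 KO replicate 1, the lowest of all, against 22.4% in CASK KO replicate 2, 21.1% in MDX replicate 5 and 23.5% in MDX control replicate 5 (23.3% in control replicate 2). Read pairs outside annotated exons made up 12.6% in CASK KO replicate 1 and 10.4% in MDX control replicate 3, but 5.91% in SAP97 KO replicate 1, below the 9.10 and 12.0% of replicates 2 and 3. Mitochondrially encoded genes took 51.0% of counts in MDX replicate 5 and 51.2% in MDX control replicate 5, both from the backcrossed stock and high for the 71 genes, but also 54.4% in MDX control replicate 3, which was low for them. The MDX control libraries were sequenced in more than 1 round, and no label gives the round of a library, so rounds could not be compared. The part of these measures in the movement was not tested.

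**Figure D3:**
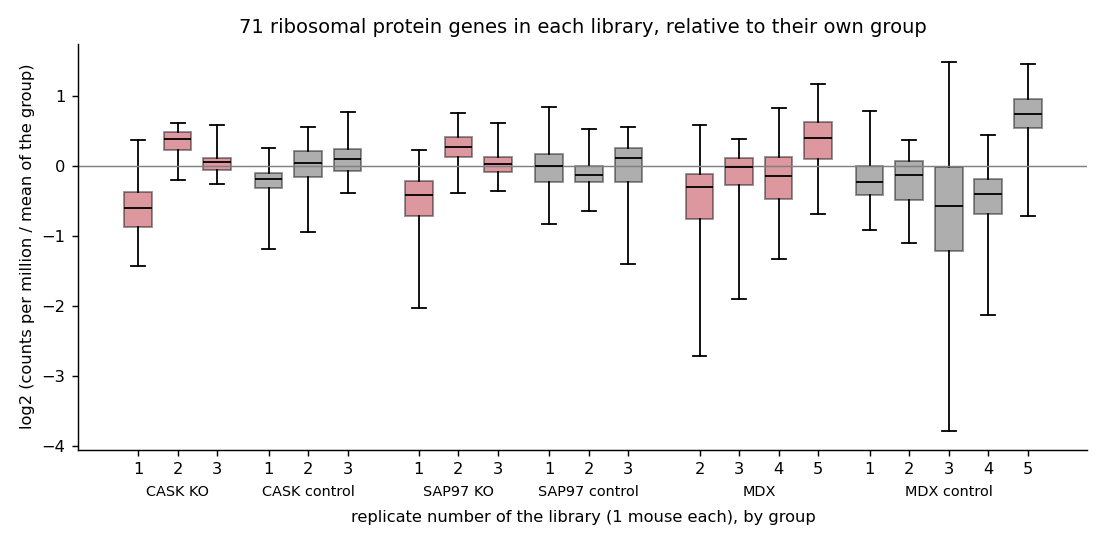
Scaled counts of the 71 genes in each of the 21 libraries, as the log2 ratio to the mean of the gene's own group (y axis). Boxes give the quartiles, the line in each the median and whiskers the full range over genes. The medians lie at -0.60 in CASK KO replicate 1 and 0.39 in replicate 2, and at 0.75 in MDX control replicate 5.

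As a share of all counts, the 71 genes took 0.178, 0.329 and 0.228% in CASK KO mice, against 0.290, 0.275 and 0.268% in CASK control mice. The control values lie within the range of the knockouts. In SAP97 KO mice the share was 0.150, 0.237 and 0.221%, against 0.219, 0.213 and 0.290% in SAP97 control mice. MDX mice had 0.221, 0.271, 0.224 and 0.253%, against 0.194, 0.235, 0.111, 0.214 and 0.274% in MDX control mice. All 3 pairs of groups overlapped, and small-subunit over large-subunit counts lay between 0.935 and 1.13 in all 21 libraries.

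Loss of CASK left the ribosomal protein genes without a call. None of the 71 passed edgeR's quasi-likelihood test at an adjusted p of 0.01, and 0% of all 14963 genes tested did. The targeted Cask, lower in every knockout library, was thus not called by edgeR either. The absence of a call therefore does not show that a level was unchanged. DESeq2 also called none of the 71, and 118 genes in all. At an unadjusted p under 0.05, edgeR had 3 of the 71, against 8.84% of all genes. Log2 fold changes of CASK KO over CASK control ran from -0.51 to 0.88 with a median of 0.03 (0.01 over all genes), and 36 of the 71 were above 0, against 52% of all genes. Their standard errors had a median of 0.29 (0.16 to 0.56 over the 71 genes). Fitted with the replicate number as a block, CASK KO again had 0 of the 71 called, and 11 called genes in all. That fit had 8 of the 71 at an unadjusted p under 0.05, against 2038 of all 14963 genes.

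The smallest p in this comparison belonged to Rps27, at 1.86, 1.4997 and 1.41 CPM in CASK KO and 0.70, 1.07 and 0.83 in CASK control. All 3 knockout values lay above the controls (log2 fold change 0.88 ± 0.29 SE, unadjusted p = 0.015 and adjusted p = 0.41 by edgeR). With Rps27rt and the other copies added, the value was -0.18 ± 0.32. Rpl9 (0.74 ± 0.30), Rps18 of the small-subunit head (0.80 ± 0.33), Rpl12 of the stalk base (0.60 ± 0.32) and Rps27a, which is translated as a fusion with ubiquitin (0.62 ± 0.38), were also on the higher side, at adjusted p of 0.54 to 0.73. With copies added, the sign turned for Rps18 (-0.28 ± 0.26), Rpl12 (-0.31 ± 0.32) and Rps27a (-0.16 ± 0.32), and Rpl9 was at 0.16 ± 0.30. Rpl3 (-0.45 ± 0.21) and Rpl18 (-0.47 ± 0.23) were on the lower side, at adjusted p of 0.60 and 0.63, and Rpl18 was at -0.10 ± 0.21 with copies. For Rps27, Rpl18 and, named after its values were seen, Rps15a, the groups did not overlap, 3 of the 71, against 14.3% of all genes.

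These counts rested on single mice. Without CASK KO replicate 1, 55 of the 71 were above 0 with a median of 0.23, and without CASK KO replicate 2, 21 were above 0 with a median of -0.26. With copies added, 14 of the 71 families lay above 0 and the median was -0.13.

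Loss of SAP97 also gave no call among the 71, against 0.0204% of all 14722 genes (3 genes, among them the targeted Dlg1). DESeq2 called none of the 71 and 46 genes in all. At an unadjusted p under 0.05 there were 3 of the 71, against 7.97% of all genes. Here 17 of the 71 log2 fold changes were above 0, against 54.8% of all genes, with a median of -0.15 (0.03 over all genes). With copies added, 3 of the 71 families were above 0 and the median was -0.26. Without SAP97 KO replicate 1, in which 59 genes were lowest, 33 were above 0 and the median was -0.03.

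Rps2, a protein at the messenger entry channel, had 26.1, 24.4 and 29.0 CPM in SAP97 KO and 35.4, 36.8 and 49.3 in SAP97 control. The groups did not overlap (log2 fold change -0.61 ± 0.16 SE, unadjusted p = 0.0040, adjusted p = 0.48 by edgeR). With no filter on low counts, its adjusted p was 0.0296, the smallest of any of the 71 in any alternative of this comparison (Rps21 had the same value). Rps2 has 36 near-identical copies, and its counts differed by over 1.1 times between the deposited tables, which use different annotation releases. Rpl22, which also binds viral and cellular RNA outside the ribosome, had 51.3, 74.6 and 60.4 against 80.3, 73.3 and 96.7 (-0.43 ± 0.17). Rps21 (-0.63 ± 0.27), Rps3a3 (-0.41 ± 0.22), Rps24 (-0.37 ± 0.21), Rpl36 (-0.41 ± 0.25), Rplp2 (-0.44 ± 0.27) and Rps14 (-0.40 ± 0.25) followed, all with adjusted p between 0.62 and 0.69. Rps2 and Rpl36 were the 2 of 71 without overlap, against 12.9% of all genes.

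In MDX mice, edgeR called none of the 71 and 0% of all 14994 genes, so that the targeted Dmd was not called either. DESeq2 called none of the 71 and 19 genes in all. At an unadjusted p under 0.05 there was 1 of the 71, against 2.72% of all genes. Of the 71, 45 were above 0, against 48.2% of all genes, with a median log2 fold change of 0.09 (-0.01 over all genes), and 59 were above 0 with copies added, with a median of 0.16. Without MDX replicate 5, 28 of the 71 were above 0 and the median was -0.09. Without MDX control replicate 5, 62 were above 0 with a median of 0.33, and without both backcrossed mice 49 with a median of 0.19.

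Rpl3 had the smallest p, at 6.16, 7.76, 5.75 and 7.06 CPM in MDX and 4.05, 3.48, 4.95, 3.31 and 6.66 in MDX control. Only control replicate 5 reached the MDX range (log2 fold change 0.58 ± 0.22 SE, unadjusted p = 0.024 and adjusted p = 1.0 by edgeR). Rps4l had 14.7, 13.4, 9.19 and 15.8 against 9.35, 11.3, 8.14, 9.48 and 12.6 (0.38 ± 0.19). Rpsa, which also serves as a laminin receptor at the cell surface, had 67.9, 58.4, 26.4 and 43.4 against 34.9, 35.7, 34.7, 23.5 and 44.1 (0.50 ± 0.26). Rps2 (0.47 ± 0.32), Rpl7a (0.38 ± 0.26) and Rpl36a (0.49 ± 0.37) were on the higher side and Rps25 (-0.35 ± 0.26) and the X-linked Rps4x (-0.55 ± 0.45) on the lower side, all at an adjusted p of 1.0. With copies added, the sign turned for Rps4x (0.06 ± 0.35), and Rps25 was at -0.11 ± 0.38 and Rpl36a at 0.22 ± 0.35. In CPM, no gene of the 71 separated the groups, against 1.25% of all genes. In TPM, Rpl18, named after its values were seen, did so, at 1.58, 1.92, 1.95 and 1.55 in MDX and 1.104 to 1.52 in MDX control. No share over all genes is at hand for TPM, so this separation cannot be set against a background. Rpl18 alone held 6.03% of the counts of Rpl18 and its copies in MDX control.

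**Figure D4:**
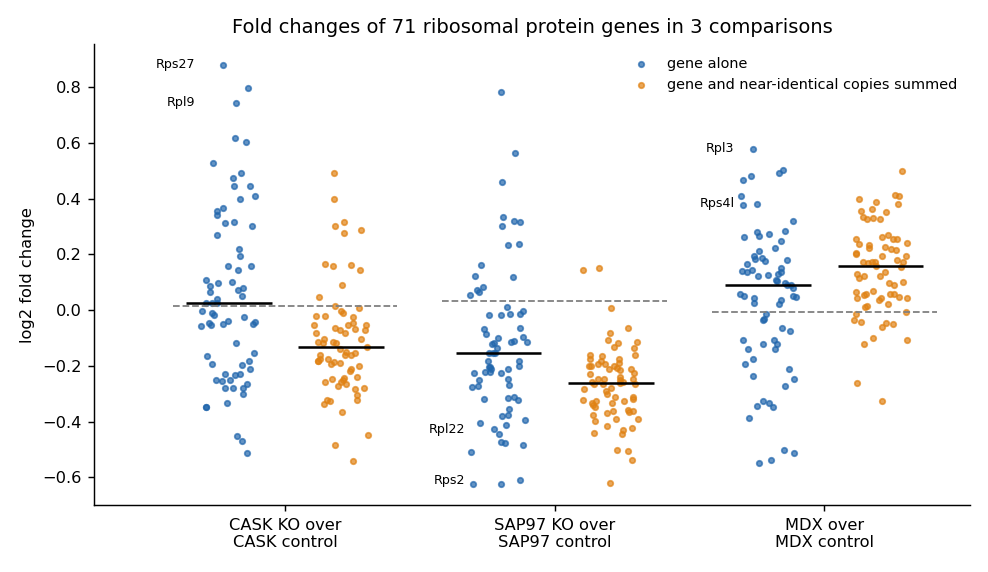
Log2 fold changes of the 71 genes (1 point a gene) in the 3 comparisons, for the gene alone (blue) and with its near-identical copies summed (orange), with the median (black line) and the median of all genes tested (dashed line). The names mark the 2 smallest p in each comparison. The medians with copies lie at -0.13 for CASK KO, -0.26 for SAP97 KO and 0.16 for MDX, and no point passed the test.

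The effects of the knockouts were compared in a model of all 21 libraries, over the 59 of the 71 genes whose counts were stable between annotation releases. None of the 59 differed between the CASK KO and SAP97 KO effects (0.333% of 15634 genes did), between the CASK KO and MDX effects (0.0768%) or between the SAP97 KO and MDX effects (0.0064%), by edgeR at an adjusted p of 0.01. At an unadjusted p under 0.05 there were 0, 1 and 0 of the 59, against 1059, 1030 and 819 of all 15634 genes. The 1 gene of the 59 was Rpl3, whose CASK KO effect minus its MDX effect was -1.06 ± 0.36 SE on the log2 scale (unadjusted p = 0.0088, adjusted p = 0.52 by edgeR). The next smallest p in that contrast belonged to Rpsa (-0.75 ± 0.37), Rpl4 (-0.56 ± 0.29) and Rpl18 (-0.76 ± 0.40).

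Rpl3 was also the 1 gene of the 59 whose level differed among the 6 groups (adjusted p = 0.0063, edgeR, 5 contrasts together), against 1.78% of all genes. A count of 1 in 59 is near that share. The model used the counts of Rpl3 alone and was not fitted with copies. In MDX control, Rpl3 alone held 13.3% of the counts of Rpl3 and its copies. The level of Rpl3 was 3.97, 3.00 and 2.39 TPM in CASK KO and 5.90, 5.12 and 2.73 in CASK control. It was 1.00, 1.86 and 2.51 TPM in SAP97 KO and 1.501, 1.53 and 1.08 in SAP97 control. MDX mice had 3.44, 4.38, 3.78 and 2.78 TPM, and MDX control mice 2.35, 2.01, 1.72, 2.78 and 2.18. Group means were highest in CASK control and lowest in SAP97 control, and the lines differ in strain and, by the labels, in the Cre of their controls, so that these cannot be told apart. Leaving out any 1 of 9 libraries lost the call. The adjusted p was then 0.0205 and 0.0215 without CASK control replicate 1 and 2, 0.0114 without SAP97 KO replicate 2, 0.0127, 0.0173 and 0.0222 without SAP97 control replicate 1, 2 and 3, and 0.0108, 0.0146 and 0.0112 without MDX replicate 2, 3 and 5.

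Rpl3l (chr17:24727820-24736143) has no near-identical copy and was among the 6 highest genes. It had 160, 189 and 124 TPM in CASK KO, against 166, 112 and 134 in CASK control. In SAP97 KO it had 115, 150 and 151 TPM, against 150, 173.8 and 147 in SAP97 control. MDX mice had 140, 159, 122 and 79.7 TPM, and MDX control mice 150, 168, 64.6, 138 and 92.0. It was called in none of the comparisons, at 0.31 ± 0.26 SE (log2) in CASK KO, -0.23 ± 0.15 in SAP97 KO and -0.04 ± 0.21 in MDX (adjusted p of 0.81, 0.70 and 1.0 by edgeR).

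The ratio of Rpl3l to Rpl3 (chr15:80077791-80091868) depends on whether copies of Rpl3 are counted. Per kilobase of exon, Rpl3l exceeded Rpl3 by 40.4, 62.9 and 52.0 times in CASK KO and by 28.1, 21.8 and 49.2 times in CASK control. In SAP97 KO it did so by 115, 80.6 and 60.1 times, against 99.8, 114 and 137 times in SAP97 control, and in MDX by 40.6, 36.2, 32.3 and 28.7 times, against 63.6, 83.3, 37.5, 49.9 and 42.2 times in MDX control. Rpl3 itself had only 58 to 328 counts a library, while Rpl3 and its 7 copies together had 291 to 2952. On that sum, the ratio of counts was 2.67, 3.65 and 2.94 in CASK KO, against 1.61, 1.33 and 2.38 in CASK control, with no overlap. It was 2.41, 2.201 and 2.81 in SAP97 KO, against 3.72, 3.70 and 2.38 in SAP97 control. MDX mice had 3.67, 2.94, 2.51 and 1.99, and MDX control mice 4.70, 4.52, 6.12, 2.78 and 3.08. The means were 3.09 ± 0.50 and 1.78 ± 0.54 in CASK KO and CASK control, 2.48 ± 0.31 and 3.26 ± 0.77 in SAP97 KO and SAP97 control, and 2.78 ± 0.71 and 4.24 ± 1.35 in MDX and MDX control (SD), with no test run on the ratio. Fitted with its copies, Rpl3 stood at -0.54 ± 0.18 on the log2 scale in CASK KO (adjusted p = 0.40 by edgeR) and 0.50 ± 0.27 in MDX (adjusted p = 1.0).

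**Figure D5:**
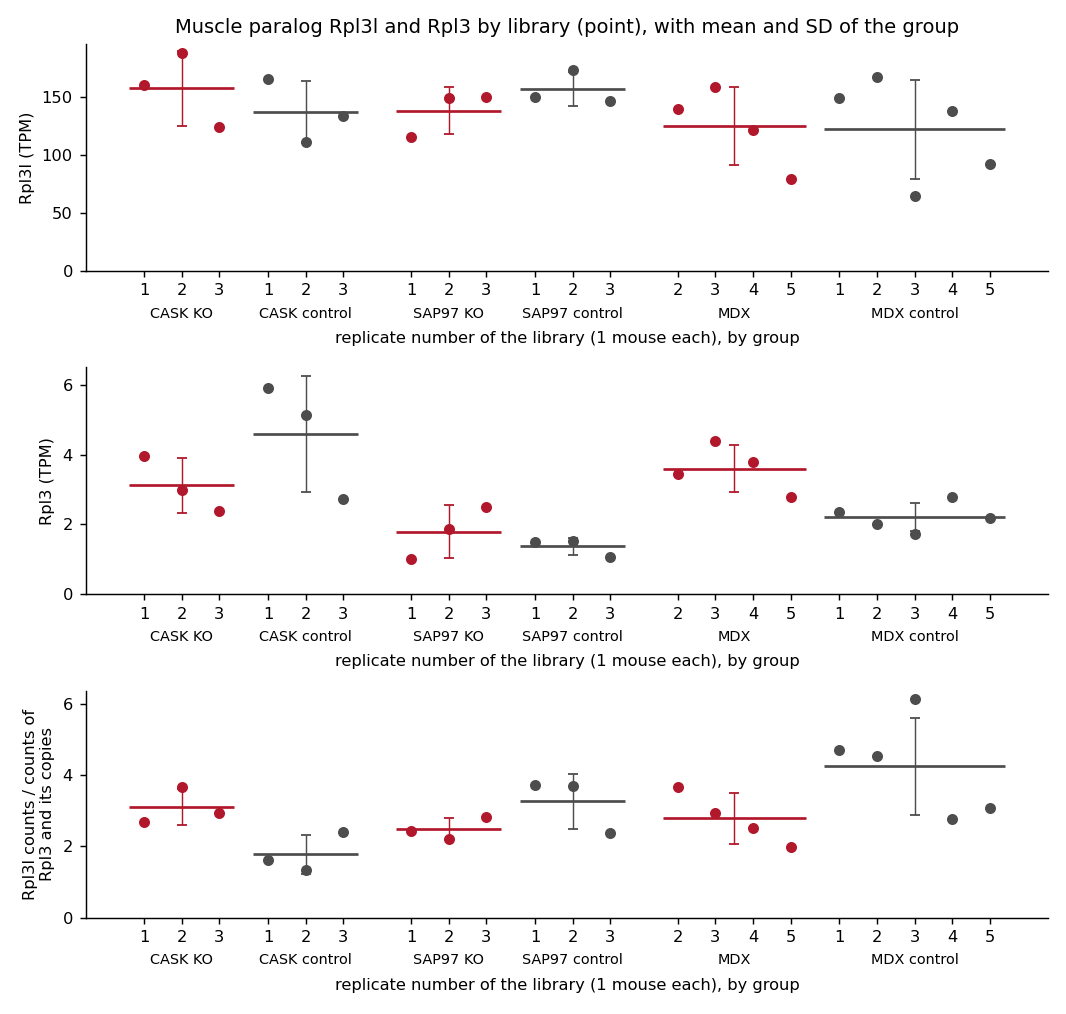
Level of Rpl3l (top, TPM), level of Rpl3 (middle, TPM) and counts of Rpl3l over those of Rpl3 and its near-identical copies (bottom) in each of 21 libraries, with the mean and SD of each group. The bottom ratio lay at 2.67 to 3.65 in CASK KO and 1.33 to 2.38 in CASK control, and the groups overlapped in the SAP97 and MDX comparisons.

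Other paralog pairs showed no call either. Rps27l, a p53-responsive paralog of Rps27, had 83.3 TPM in MDX control on average, against 1.37 TPM for Rps27, whose retrogene held most of its family's counts. Rpl22 had 39.6 TPM and its paralog Rpl22l1 1.27, and Rps4x 30.3 and its processed copy Rps4l 17.8. The log2 fold changes of Rps27l were -0.20 ± 0.36 in CASK KO, -0.13 ± 0.24 in SAP97 KO and 0.12 ± 0.40 in MDX, and those of Rpl22l1 were 0.31 ± 0.38, 0.23 ± 0.42 and -0.12 ± 0.54. The stalk gene Rplp0, often used as a reference gene in quantitative PCR, was at log2 fold changes of 0.04 ± 0.27, -0.10 ± 0.20 and 0.06 ± 0.33, with individual mice at 46.6 to 97.5 CPM in CASK KO and 38.4 to 146 in MDX control. The stalk gene Rplp1 was at 0.05 ± 0.37, -0.31 ± 0.21 and 0.18 ± 0.37, and Rpl39, a small protein of the exit tunnel, at 0.16 ± 0.36, -0.51 ± 0.41 and -0.11 ± 0.78. With copies added, the sign in CASK KO turned for Rplp0 (-0.15 ± 0.24) and Rpl39 (-0.37 ± 0.26), and Rplp1 was at 0.02 ± 0.37. Rpl13a, another common reference gene, was at -0.35 ± 0.27, -0.25 ± 0.19 and 0.19 ± 0.38, and averaged 1988 counts in the CASK comparison against 79.1 in the MDX comparison, a gap between the deposited tables whose source was not tested.

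Genes that act with the ribosome gave no call in any comparison. Of all genes tested, 52% were above 0 in CASK KO, 54.8% in SAP97 KO and 48.2% in MDX. Of 23 tested elongation factors and other messengers with a pyrimidine start, 8 were above 0 in CASK KO, 8 in SAP97 KO and 11 in MDX. Eef1a1, which delivers aminoacyl-tRNA, had the smallest p in CASK KO at -1.05 ± 0.22 (unadjusted p = 0.0012, adjusted p = 0.22 by edgeR). Of 35 initiation genes, 12, 14 and 11 were above 0. Eif4ebp1, whose protein keeps Eif4e from binding eIF4G and is controlled by mTOR, stood at -0.90 ± 0.19 in CASK KO (adjusted p = 0.23 by edgeR) and the cap-binding Eif4e at -0.43 ± 0.16 in SAP97 KO (adjusted p = 0.62). Of 39 ribosome biogenesis genes, 5 were above 0 in CASK KO with a median of -0.16, 11 in SAP97 KO and 19 in MDX. How far the counts of these lists rest on single mice is not given here. Bop1, which processes large-subunit rRNA, was at -0.51 ± 0.14 in CASK KO (adjusted p = 0.33 by edgeR).

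Genes of the separate mitochondrial ribosome were also tested, 76 in all. In SAP97 KO, 0 of the 76 were above 0, against 54.8% of all genes, with a median of -0.28. Of the 76, 14 had an unadjusted p under 0.05 by edgeR, against 7.97% of all genes. None was called at 0.01 (smallest adjusted p = 0.39, for Mrps28 at -0.70 ± 0.16, by edgeR). With no filter on low counts, 1 of the 76 was called, against 134 of all 27567 genes. DESeq2 called 0 of the 76, against 46 genes in all. With single libraries left out, 0 to 4 were above 0 and the median ran from -0.41 to -0.19. In CASK KO 30 of the 76 were above 0 (6 without replicate 2 and 61 without replicate 1), against 52% of all genes. In MDX 47 of the 76 were above 0, against 48.2% of all genes.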

How the data were processed

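The authors removed read pairs of ribosomal RNA with Bowtie2, mapped the rest to the mouse genome GRCm38 with TopHat2 2.0.13 and deposited raw counts of read pairs per Ensembl gene from HTSeq 0.6.1. The sources name 2 Ensembl releases, so tests stayed within each deposited comparison. Pairs overlapping more than 1 gene were left out by the authors as ambiguous. The authors' own fold changes and p-values in these tables were not used. Exon lengths deposited by the authors (other values, in base pairs) gave TPM.

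The 71 genes and all lists were chosen with earlier results of these data known. Genes named are the 8 with the smallest p in each comparison, the 6 highest and 6 lowest in level, a set of paralogs and common reference genes, and up to 4 examples a list. Some genes that this rule names are not reported here. Counts were tested with edgeR 4.0.16 (filterByExpr, TMM, quasi-likelihood F test, Benjamini-Hochberg adjustment over all genes, threshold 0.01), and DESeq2 1.42.0 was an alternative. A model of all 21 libraries, on genes whose counts agreed within 1.1 times between the deposited tables, gave differences between effects. The procedure was tested on simulated data. Replicates of a group are separate mice. No libraries were duplicates (lowest chi-square per gene 25.7 between replicates). Same-numbered CASK KO and CASK control libraries deviated together (correlations 0.444, 0.227 and 0.208), which is a hint from the data, since the labels name no shared litter or day. Near-identical copies were found in GENCODE vM21 transcripts, and promoters in RefSeq. Protein sequences were not used here.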

Additional observations from a re-analysis of the deposited data

Results flagged for a closer look

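In groups of 4 or 5 mice, 70 sets of values were checked for a mouse far from the others, and 8 stood out. For a single set, chance gives about 1 in 20. The sets come from the same mice and move together, so their count cannot be judged against that rate. MDX replicate 3 had a summed level of the 71 genes of 3621 TPM, against 3066 to 3113 in the other MDX mice. MDX replicate 5 had 51.0% mitochondrially encoded counts, against 35.0 to 36.3%. Rpl7a was at 2.23 CPM in MDX replicate 2, against 2.95 to 3.10 in the others. MDX control replicate 5, the backcrossed control, stood out in 3 genes, with Rpl22 at 127 CPM (56.1 to 72.3 in the other controls), Rplp1 at 281 (77.8 to 124) and Rplp2 at 10.5 (2.53 to 3.52). MDX control replicate 3 stood out in 2, with Rpl28 at 2.91 (0.417 to 0.658) and Rps27 at 2.86 (0.238 to 0.905).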

How the results depend on the processing

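No alternative gave a call among the 71 genes in the 3 comparisons, although all-gene counts moved: DESeq2 called 118, 46 and 19 genes and edgeR with no filter on low counts 182, 134 and 6 in the CASK KO, SAP97 KO and MDX comparisons, against 0, 3 and 0. Adding copies, alternatives chosen after seeing the data, gave these counts of genes above 0: 14 in CASK KO with near-identical copies, and in SAP97 KO 6 with named pseudogenes and 3 with near-identical copies. With single mice left out, it was 21 to 55 in CASK KO, 13 to 33 in SAP97 KO and 28 to 62 in MDX, and the count of genes that differed among the 6 groups was 0 to 1. With the replicate block, 30, 17 and 44 of the 71 were above 0, with medians of -0.06, -0.19 and 0.09, 0 were called, and all-gene calls were 11, 0 and 0. Same-numbered libraries correlated at 0.0115, 0.104 and -0.342 in the SAP97 comparison and at -0.0672, 0.0646, 0.422 and 0.645 in the MDX comparison. The 2 mice numbered 5 share the backcrossed stock, and the other numbers mark no shared origin in the labels.

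Shares of counts depended on what was counted. Without mitochondrially encoded genes they were 0.401% in CASK KO and 0.428% in CASK control, 0.335% in SAP97 KO and 0.374% in SAP97 control, and 0.407% in MDX and 0.357% in MDX control. With copies they were 0.661 and 0.766%, 0.539 and 0.657%, and 0.703 and 0.583%, in the same order. With single mice left out, the share was 0.203 to 0.278% in CASK KO and 0.272 to 0.283% in CASK control, 0.186 to 0.229% in SAP97 KO and 0.216 to 0.255% in SAP97 control, and 0.233 to 0.249% in MDX and 0.189 to 0.229% in MDX control. Rpl3l over Rpl3 as plain counts was 27.3 and 17.4, 44.9 and 61.5, and 18.2 and 29.1, and with copies of Rpl3 3.09 and 1.78, 2.48 and 3.26, and 2.78 and 4.24. Per kilobase, with single mice left out, it was 46.2 to 57.5 and 24.9 to 38.6, 70.3 to 97.9 and 107 to 125, and 32.4 to 36.4 and 48.3 to 59.7. Few counts of single parent genes limit the precision, and ambiguous pairs are missing from all values.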
